A study of Mus musculus with 16 samples.

Results

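The nuclear genes for the subunits of the mitochondrial respiratory chain and the ATP synthase were followed across 16 mouse hearts. Their rows were chosen by name from a table of 55573 genes: protein-coding rows for subunits of complexes I to V (the Ndufa, Ndufb, Ndufc, Ndufs and Ndufv genes, Sdha to Sdhd, the Uqcr genes and Cyc1, the nuclear Cox subunit genes and the Atp5 genes) and for cytochrome c (Cycs), with at least 10 counts in at least 4 hearts. This gave 87 genes, of which 36 belong to complex I, 4 to complex II, 9 to complex III, 19 to complex IV, 17 to complex V and 1 to cytochrome c. The last, Atp5s, carries the name but codes for a factor and not for a subunit. Ndufa4 and Ndufa4l2 were counted with complex IV, where the Ndufa4 protein sits. Of the rows that fit the names, 13 were left out because they are not coding genes, and Cox8c because it had 0 counts in every heart.

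Each heart was the ventricle of a male mouse, and each group held 4. All 16 mice carried the aMHC-MerCreMer transgene, which makes a tamoxifen-dependent Cre in cardiomyocytes alone, and both copies of the floxed Trbp gene. Trbp-cKO mice received tamoxifen at 30 mg/kg daily over 5 days, starting at an age of 4 weeks, and control mice received corn oil, so the loss of Trbp and the exposure to tamoxifen with active Cre cannot be told apart in these hearts. Trbp (gene name Tarbp2) binds double-stranded RNA and partners Dicer in the making of microRNAs. Transverse aortic constriction (TAC), which narrows the aorta and loads the left ventricle with pressure, or a sham operation followed 4 weeks later, and hearts were taken at the age of 16 weeks. The ventricle holds fibroblasts, endothelial cells and others beside cardiomyocytes, and fewer cardiomyocytes and less RNA per cardiomyocyte cannot be told apart in whole tissue. Tarbp2 itself measured 30.6 to 33.3 CPM (counts scaled to library size) in control sham hearts, 21.1 to 31.1 in control TAC, 8.39 to 11.4 in Trbp-cKO sham and 7.14 to 9.74 in Trbp-cKO TAC hearts.

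The respiratory chain passes electrons from NADH (complex I) and succinate (complex II) through complex III and cytochrome c to oxygen at complex IV, and the proton gradient built on the way drives the ATP synthase (complex V). The heart depends on it for nearly all of its ATP. A small set of subunits is made from the mitochondrial chromosome and all others come from nuclear genes, which are read by NRF1, ETS-family GABP, ERR and YY1 with the coactivators PGC-1alpha and PGC-1beta. Complex IV is the one enzyme of the chain with tissue forms of several subunits: subunits 6a, 7a and 8 have a heart and skeletal muscle form (Cox6a2, Cox7a1 and Cox8b) and a form made in most tissues (Cox6a1, Cox7a2 and Cox8a). Subunit 4 has a main form (Cox4i1) and a form (Cox4i2) best known from lung and low oxygen.

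In control sham hearts the ATP synthase and complex IV transcripts stood highest. Levels between genes are given per kilobase of transcript. Atp5b, the catalytic beta subunit of the F1 head, was the highest at 2152 ± 71 CPM per kb (SD, n = 4), and Cox4i1 came next at 1743 ± 75. Every heart's Atp5b value lay above every heart's Cox4i1 value. Below them, Atp5a1 (the alpha subunit of F1) at 1507 ± 72, Atp5g1 at 1487 ± 64 and Atp5g3 at 1460 ± 58 (both coding for the c ring) did not separate from each other. The median member of complex I measured 262 CPM per kb, that of complex II 294, that of complex III 589, that of complex IV 604 and that of complex V 660. Within complex IV the heart forms led their partners. Cox6a2 stood at 1328 ± 106 CPM per kb and Cox6a1 at 118, and Cox7a1 stood at 1104 ± 61 and Cox7a2 at 331. Cox8b stood at 918 ± 77 and Cox8a at 167.3. The lowest members were Cox4i2 (9.24), a second row of Atp5o (2.49, with 3.64, 0, 1.64 and 0 CPM in the 4 hearts), the testis form Cox6b2 (1.32) and Cox7b2 (0.280), and Cox7b2 was too low for the tests, which therefore covered 86 members.

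Deletion of Trbp was accompanied by higher transcripts of Cox6a1 and Cox8a, the common forms of complex IV subunits 6a and 8, without TAC and with it. Cox6a1 (ENSMUSG00000041697, chr5:115345642-115348981, minus strand, GRCm38) measured 72.6, 63.7, 62.2 and 71.1 CPM in control sham hearts and 223, 171, 185 and 142 CPM in Trbp-cKO sham hearts. Every Trbp-cKO sham heart lay above every control sham heart, by a log2 fold change of 1.42 ± 0.13 (SE; adjusted p = 8.75e-05, edgeR quasi-likelihood test with Benjamini-Hochberg adjustment over 19955 genes). Cox8a (ENSMUSG00000035885, chr19:7215153-7217616, minus strand) measured 98.0, 85.9, 90.0 and 94.1 CPM in control sham and 189, 159, 171 and 146 CPM in Trbp-cKO sham hearts. These groups did not overlap either, and Cox8a rose by 0.85 ± 0.10 on the log2 scale (adjusted p = 0.000698). Cox7a2 (ENSMUSG00000032330, chr9:79755361-79759878, minus strand) measured 226, 214, 209 and 222 CPM in control sham and 355, 285, 316 and 267 CPM in Trbp-cKO sham hearts. Its groups were separate, but its difference of 0.49 ± 0.12 missed the threshold (adjusted p = 0.0557). For each of the 3 the exact permutation test over the 8 hearts gave p = 0.0286, two-sided, the smallest it can give with 4 hearts against 4.

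The heart forms of the same subunits gave no call in the sham comparison. Cox6a2, which measured 994, 859, 833 and 925 CPM in control sham hearts, stood at 971, 781, 921 and 759 CPM in Trbp-cKO sham hearts, and the groups overlapped (log2 difference -0.07, 95% interval -0.34 to 0.19). Cox8b went from 370.5, 310.0, 315 and 326 CPM to 364, 298, 341 and 272 CPM, which overlapped as well (-0.05, interval -0.32 to 0.22). Cox7a1 (ENSMUSG00000074218, chr7:30184144-30186078, plus strand) measured 468, 412, 432 and 424 CPM in control sham and 401, 332, 363 and 307 CPM in Trbp-cKO sham hearts. It was the only member whose Trbp-cKO sham hearts all lay below the control sham hearts, and the difference of -0.31 ± 0.17 missed the threshold (adjusted p = 0.473).

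Cox6a1 and Cox8a were called higher after TAC as well, and there Cox7a1 was called lower. In control TAC hearts Cox6a1 measured 76.0, 83.6, 67.1 and 67.2 CPM, and in Trbp-cKO TAC hearts 184, 204, 183 and 196 CPM, a rise of 1.38 ± 0.13 (log2; adjusted p = 3.11e-05, edgeR). Cox8a went from 88.2, 79.7, 82.5 and 82.5 CPM to 153, 171, 158 and 163 CPM, a rise of 0.95 ± 0.10 (adjusted p = 6.82e-05). Neither gene's control TAC range reached its Trbp-cKO TAC range. Cox7a2 went from 174, 159, 197 and 189 CPM to 239, 277, 221 and 216 CPM, separate again, with a difference of 0.41 ± 0.12 that missed the threshold (adjusted p = 0.0640). Cox7a1 measured 339, 263, 337 and 328 CPM in control TAC and 191, 249, 196 and 126 CPM in Trbp-cKO TAC hearts. All Trbp-cKO TAC hearts were below, and Cox7a1 fell by 0.73 on the log2 scale (SE 0.17, adjusted p = 0.0226). Cox8b (330, 292, 286 and 283 CPM against 211, 281, 217 and 187 CPM) was separate but missed the threshold (-0.41, adjusted p = 0.0969), and Cox6a2 (823, 714, 825 and 789 CPM against 559, 752, 617 and 555 CPM) overlapped (-0.34, adjusted p = 0.159).

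**Figure D1:**
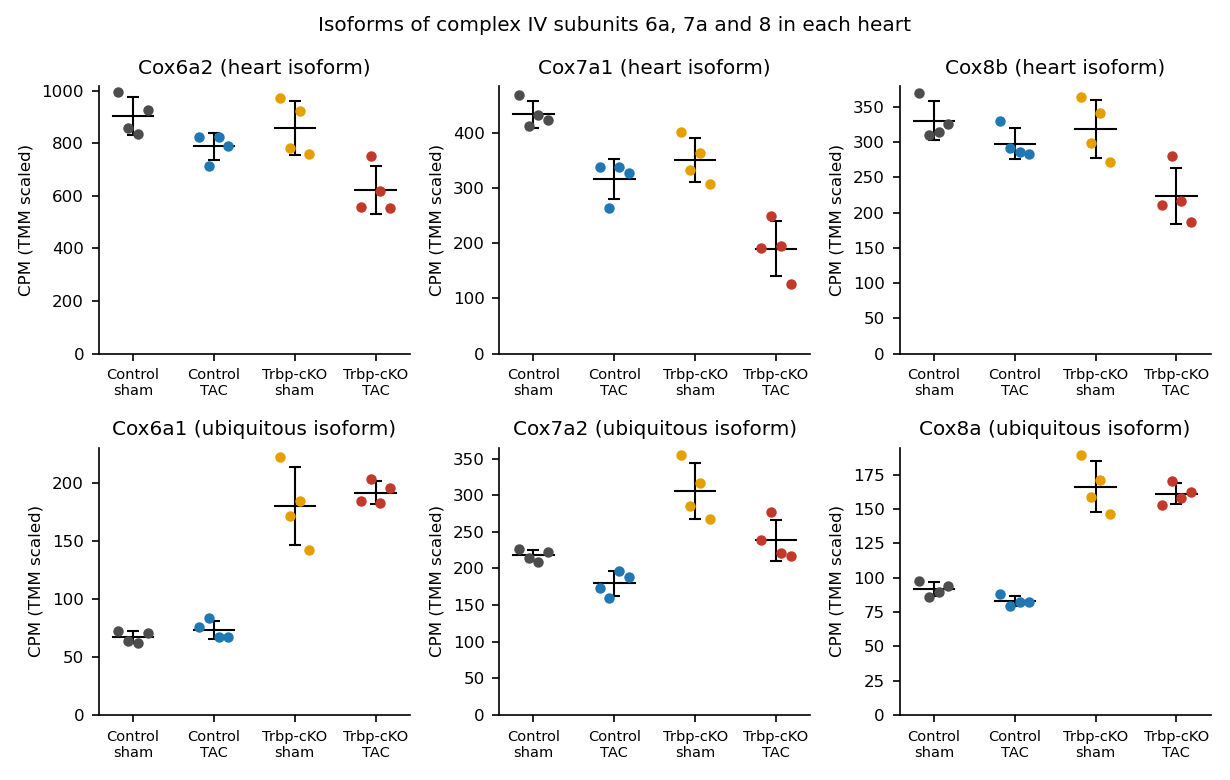
CPM (scaled by TMM) of the heart forms (top) and common forms (bottom) of complex IV subunits 6a, 7a and 8 in each heart by group; points are hearts, the long bar is the mean and the whiskers the SD (n = 4). Both Trbp-cKO groups sit above both control groups for Cox6a1 and Cox8a, and Cox7a1 is lowest in Trbp-cKO TAC hearts, at 126 to 249 CPM.

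Set against its partner in the same heart, each common form took a larger share with deletion and a larger one still with TAC on top. Per length of transcript, Cox6a1 made up 8.16 ± 0.16% of the Cox6a1 and Cox6a2 pair in control hearts after sham surgery and 10.04 ± 1.5% after TAC, and in Trbp-cKO hearts 19.9 ± 1.4% after sham surgery and 27.0 ± 2.3% after TAC (SD, n = 4 each). The lowest Trbp-cKO TAC heart (24.4%) lay above the highest Trbp-cKO sham heart (21.5%). Cox7a2 made up 23.1 ± 0.76%, 25.3 ± 1.3%, 34.2 ± 0.30% and 43.4 ± 5.0% of its pair with Cox7a1 in the same order, and Cox8a 15.4 ± 0.50%, 15.5 ± 0.56%, 25.5 ± 0.58% and 32.3 ± 3.2% of its pair with Cox8b. For these pairs too, no Trbp-cKO TAC heart overlapped the Trbp-cKO sham hearts. The step from sham to TAC among Trbp-cKO hearts came with lower heart forms and not with higher common forms: Cox6a1 differed by 0.09 (log2; adjusted p = 0.762) and Cox8a by -0.05 (adjusted p = 0.844) between those groups, while Cox6a2 fell by 0.47 (adjusted p = 0.0431). Cox7a2 was lower as well, at 355, 285, 316 and 267 CPM after sham surgery and 239, 277, 221 and 216 CPM after TAC. It was not called, but was under 4 of 19 alternatives (log2 -0.44 to -0.16). In the pairs of Cox4i1 with Cox4i2 and of Ndufa4 with Ndufa4l2 the hearts of the 2 genotypes overlapped after either operation. Cox4i2 made up 0.527%, 0.962%, 0.586% and 0.683% of its pair in the same order of groups, with the highest mean after TAC in control hearts. Ndufa4l2 made up 1.80%, 2.58%, 1.98% and 3.09%, and its Trbp-cKO TAC hearts ran from 1.71% to 4.55%, across the whole range of the control TAC hearts (2.12% to 3.21%).

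**Figure D2:**
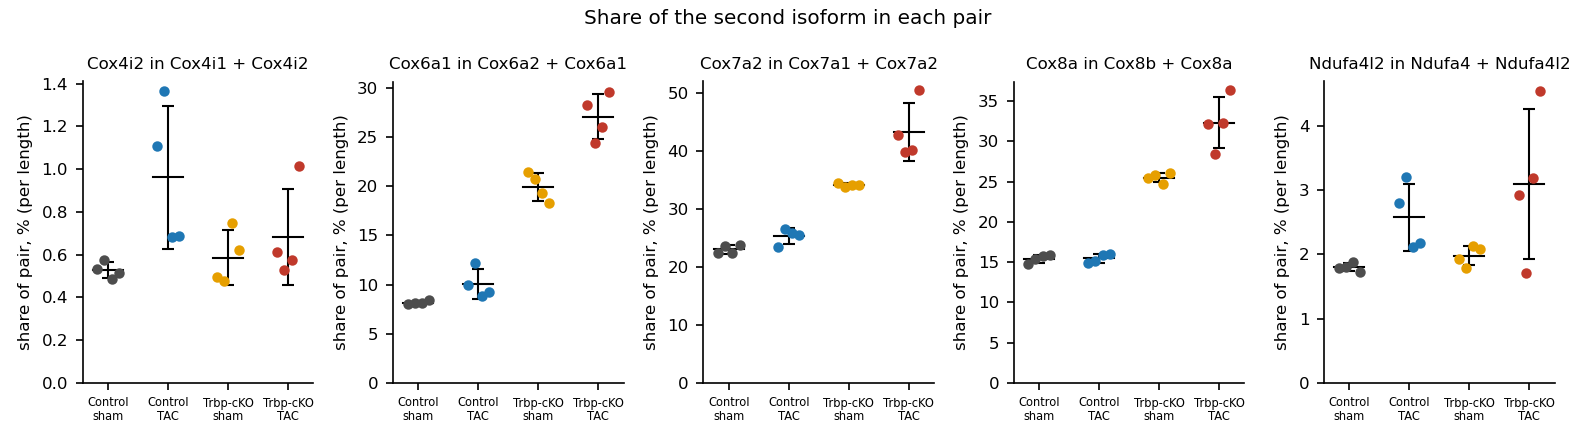
Share of the second form in each of 5 subunit pairs, in percent of the pair per length of transcript, in each heart by group; points are hearts, the long bar is the mean and the whiskers the SD (n = 4). The shares of Cox6a1, Cox7a2 and Cox8a stand apart in all 4 Trbp-cKO sham hearts and are highest in Trbp-cKO TAC hearts (means of 27.0%, 43.4% and 32.3%).

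The promoters of the common forms Cox6a1, Cox8a and Cox7a2 and of the heart forms Cox7a1 and Cox8b are shown to set the 2 kinds of form side by side; Cox6a2 had no entry. Each line gives the 250 bases before the start site, 5′ to 3′ on the gene's strand, from the RefSeq promoter table (GRCm38); capitals mark NRF1-type (GCGCA, any 1 base, GCGC) or ETS-type (CCGGAAG) letters on either strand. The windows are chr5:115348959-115349208 (minus) for Cox6a1, chr19:7217617-7217866 (minus) for Cox8a, chr9:79759854-79760103 (minus) for Cox7a2, chr7:30183921-30184170 (plus) for Cox7a1 and chr7:140900447-140900696 (minus) for Cox8b.
Cox6a1: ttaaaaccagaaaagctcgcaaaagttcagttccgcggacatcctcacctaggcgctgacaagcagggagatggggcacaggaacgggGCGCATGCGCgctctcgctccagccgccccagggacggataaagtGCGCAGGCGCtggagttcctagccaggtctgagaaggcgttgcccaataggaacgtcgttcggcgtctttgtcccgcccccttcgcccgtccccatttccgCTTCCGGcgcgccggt
Cox8a: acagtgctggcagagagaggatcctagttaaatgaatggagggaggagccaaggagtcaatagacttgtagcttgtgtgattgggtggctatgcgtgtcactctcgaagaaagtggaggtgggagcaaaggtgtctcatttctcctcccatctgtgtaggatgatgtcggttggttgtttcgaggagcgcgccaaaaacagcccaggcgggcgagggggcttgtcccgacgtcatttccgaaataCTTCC
Cox7a2: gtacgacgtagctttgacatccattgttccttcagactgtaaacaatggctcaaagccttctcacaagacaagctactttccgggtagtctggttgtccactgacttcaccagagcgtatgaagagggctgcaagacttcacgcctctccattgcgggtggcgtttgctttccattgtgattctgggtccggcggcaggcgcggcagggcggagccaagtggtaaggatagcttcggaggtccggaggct
Cox7a1: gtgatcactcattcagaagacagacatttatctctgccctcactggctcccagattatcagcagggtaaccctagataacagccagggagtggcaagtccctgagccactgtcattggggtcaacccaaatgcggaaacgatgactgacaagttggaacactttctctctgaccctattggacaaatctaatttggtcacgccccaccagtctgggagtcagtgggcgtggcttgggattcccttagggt
Cox8b: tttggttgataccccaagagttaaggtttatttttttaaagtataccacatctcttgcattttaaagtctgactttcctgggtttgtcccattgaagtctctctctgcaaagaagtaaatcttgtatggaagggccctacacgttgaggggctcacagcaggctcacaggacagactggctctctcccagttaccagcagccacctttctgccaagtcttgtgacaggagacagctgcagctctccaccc
Cox6a1 holds NRF1-type letters starting 162 and 117 bases before its start and an ETS-type match starting 16 bases before it. In Cox8a an ETS-type match starts 5 bases before the start site and runs 2 bases past it, so that 5 of its letters are shown, and a second begins at base 33 counted from the start site, outside the bases shown. Cox7a2, Cox7a1 and Cox8b have no match in the table's 300 bases. Over these whole windows, 17 of the 70 member genes in the table held the NRF1 letters (24.3%, beside 5.19% of all 27025 genes). The ETS letters were in 16 (22.9%, beside 9.93%), the ERR letters CAAGGTCA in 4 (5.71%, beside 1.76%) and the YY1 letters AAGATGGC in 10 (14.3%, beside 3.19%), both strands read. These matches describe the windows only. NRF1 letters were also present in members that gave no call, such as Sdha and Uqcrc1. Cox4i1 and Cox4i2 had no entry.

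Apart from Cox6a1 and Cox8a, no member was called between Trbp-cKO and control sham hearts. Of the 86 members tested, 2 were called higher (2.33%) and 0 lower, beside 1.02% and 0.666% of all genes, and at an unadjusted p under 0.05 there were 4 higher and 0 lower, beside 8.36% and 5.34%. The other 2 of those 4 were Cox7a2 and Cox6b2. Cox6b2, at 0.440 to 0.766 CPM in control sham and 0.926 to 1.39 CPM in Trbp-cKO sham hearts, differed by 0.93 ± 0.27 (log2; adjusted p = 0.102, edgeR) at a level of about 1 CPM. The median member differed by -0.04. It was -0.12 without Trbp-cKO sham replicate 1, with 74 members below 0, and 0.01 without Trbp-cKO sham replicate 4, with 40 below 0. With a score of clock genes in the fit it was -0.35, with 79 below 0. In the fit without that score the medians were -0.05 for complex I, -0.12 for complex II, -0.08 for complex III, 0.01 for complex IV and -0.02 for complex V. Spearman's rho of transcript length and log2 difference was -0.48 over 85 members in this comparison, and the part of length was not tested. DESeq2 called 4 higher and 0 lower, and 537 and 384 of all 19955 genes. Trbp-cKO sham hearts lay wholly above control sham hearts in 4 members and wholly below in 1, beside 7.74% and 6.96% of all genes.

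Values of cell type markers and of the day cycle differed along with these genes in the sham comparison. The summed level of 10 fibroblast markers was 932 to 1095 CPM in control sham and 1226 to 1522 CPM in Trbp-cKO sham hearts, with 1 of the 10 called higher. That of 12 cardiomyocyte markers was 68488 to 74852 CPM and 53623 to 70252 CPM, with Myl3 called lower. That of 10 smooth muscle and pericyte markers was 1206 to 1410 CPM and 1488 to 1657 CPM, without overlap, and Acta2 was called higher (1.18, adjusted p = 0.0417). A score from clock genes (the Bmal1 arm less the Per and Dbp arm) ran from 1.11 to 2.41 in control sham and from -1.93 to -1.64 in Trbp-cKO sham hearts, so that clock state and deletion were nearly the same split among sham hearts. With that score in the fit, Cox6a1 (1.28, adjusted p = 0.782) and Cox8a (0.75, adjusted p = 0.879) lost their calls in the sham comparison, where 0 of all 19955 genes were then called in place of 203 higher and 133 lower, and kept them after TAC (1.40 and 0.96). The scores of the Trbp-cKO TAC hearts ran from -0.99 to 1.79, and their Cox6a1 values from 183 to 204 CPM. The part of clock state and of these cells in the members' values was not tested.

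TAC in control hearts was accompanied by lower levels of most members, but the hearts disagreed on how much and no member passed the test. In control TAC replicates 1 and 2 the median member stood at 74.8% and 61.6% of its control sham mean, and in replicates 3 and 4 at 87.9% and 88.4%. Of 86 members 0 were called in either direction by edgeR, beside 4.09% of all genes called higher and 2.2% lower, while 47 were lower and 1 higher at an unadjusted p under 0.05, beside 11.2% and 15.4%. DESeq2 called 14 lower and 0 higher, and over all 19955 genes 1031 lower and 1468 higher. All control TAC hearts lay below all control sham hearts in 61 members (70.9%), beside 8.78% of all genes, and above them in 2, beside 8.64%. The log2 difference was below 0 in 77 members, beside 47.3% of all genes, with a median of -0.35 beside 0.02 over all genes. Without control TAC replicate 3 there were 9 members called lower and without replicate 4 there were 14, while the lower calls over all genes rose from 439 to 1001 and 1109. Without replicates 1 and 2 of this group and Trbp-cKO TAC replicate 4, a choice made after seeing the data, the median was -0.18 and 0 were called.

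On the group's mean complex II and the catalytic cores were lowest, which rested on control TAC replicates 1 and 2. There the median complex II member stood at 31.5% and 26.8% of control sham, and in replicates 3 and 4 at 86.4% and 86.4%, close to the median member. Sdha, the succinate-oxidising flavoprotein of complex II, measured 883, 1048, 958 and 947 CPM in control sham hearts and 193, 166, 782 and 779 CPM in control TAC hearts. Replicates 1 and 2 lay far below the others, which lay just below the sham range, and the difference was -0.999 ± 0.44 (log2; adjusted p = 0.170). In replicates 3 and 4 Sdha stood at 81.6% and 81.2% of control sham, while Cox7a1 at 77.8% and 75.5% and Ndufa13, an accessory subunit of complex I, at 81.2% and 75.5% were as low or lower. Atp5a1 and Atp5b of the F1 head were split in the same way. Atp5b measured 4000, 4312, 4052 and 4126 CPM and then 1534, 1294, 3492 and 3454 CPM (-0.75 ± 0.29, adjusted p = 0.125). In complex I, Ndufv1, which carries the site for NADH, went from 605, 636, 567 and 621 CPM to 257, 210, 507 and 505 CPM (-0.72 ± 0.25, adjusted p = 0.0933). Uqcrc1 (core of complex III), Uqcrfs1 (the Rieske protein), Cyc1 (cytochrome c1) and Cycs gave -0.66, -0.64, -0.62 and -0.56. Complex IV was milder, with Cox5a at -0.50 and Cox4i1 at -0.38. The medians were -0.33 for complex I, -0.78 for complex II, -0.44 for complex III, -0.27 for complex IV and -0.43 for complex V. Within complexes, the 7 core matrix-arm subunits of complex I had a median of -0.56 and its 19 accessory membrane-arm subunits -0.25. The F1 head of complex V stood at -0.81 and its membrane subunits at -0.18. Cox4i2 was the 1 member higher at an unadjusted p under 0.05, at 7.07, 7.17, 5.90 and 6.73 CPM in control sham and 10.3, 10.53, 7.57 and 7.76 CPM in control TAC hearts (0.43 ± 0.17, adjusted p = 0.130).

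**Figure D3:**
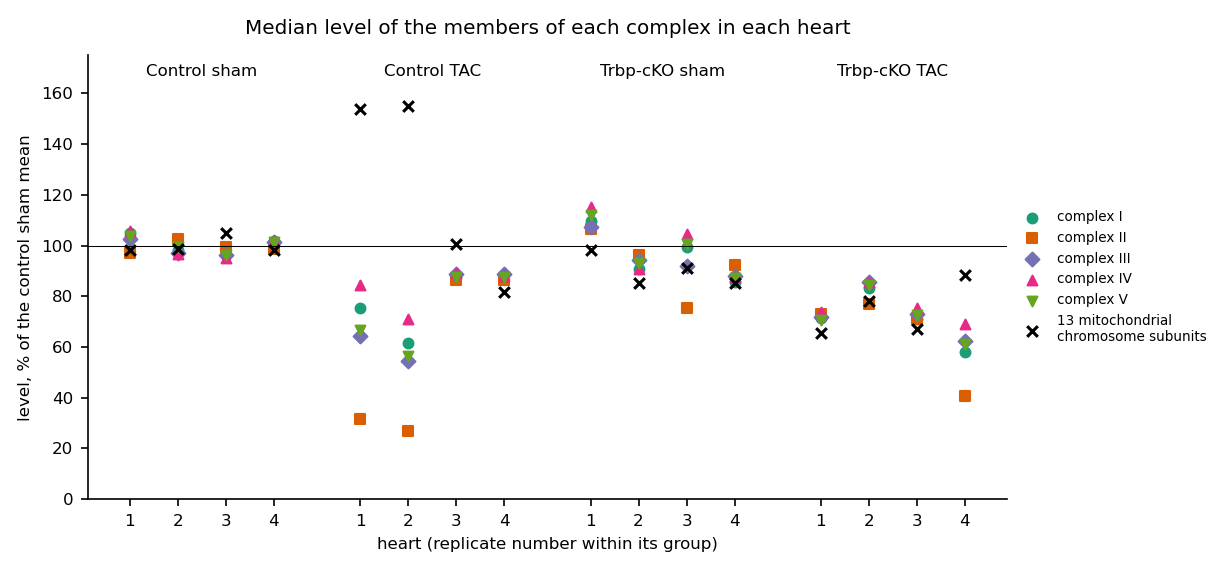
Median level of the members of each complex in each heart, in percent of the control sham mean, with the summed level of the 13 subunits of the mitochondrial chromosome as crosses; hearts are numbered by replicate within the group. Control TAC hearts 1 and 2 show complex II at 31.5% and 26.8% and complex IV at 84.3% and 71.1%, with the mitochondrial chromosome above all sham hearts.

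The difference between subunits followed the length of their transcripts. Members under 600 bases (28 of them) had a median of -0.18 in control TAC against control sham, those of 600 to 1000 bases (27) -0.31, those of 1000 to 1600 bases (16) -0.50 and those of 1600 to 4000 bases (14) -0.72. Other coding genes of at least 50 CPM gave 0.14, -0.02, -0.27 and -0.26 in the same windows, so members were lower than genes of like length in each. Across 85 members, which share the same libraries, Spearman's rho of length and log2 difference was -0.68. In control TAC replicates 1 and 2 the longest members stood at 40.3% and 34.0% of control sham, and other genes of that length at 68.1% and 67.4%. In replicates 3 and 4 the same members stood at 85.6% and 86.7%, and other genes at 95.2% and 98.3%. Complex II and the catalytic cores are among the long transcripts, and the part of length in their values was not tested.

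**Figure D4:**
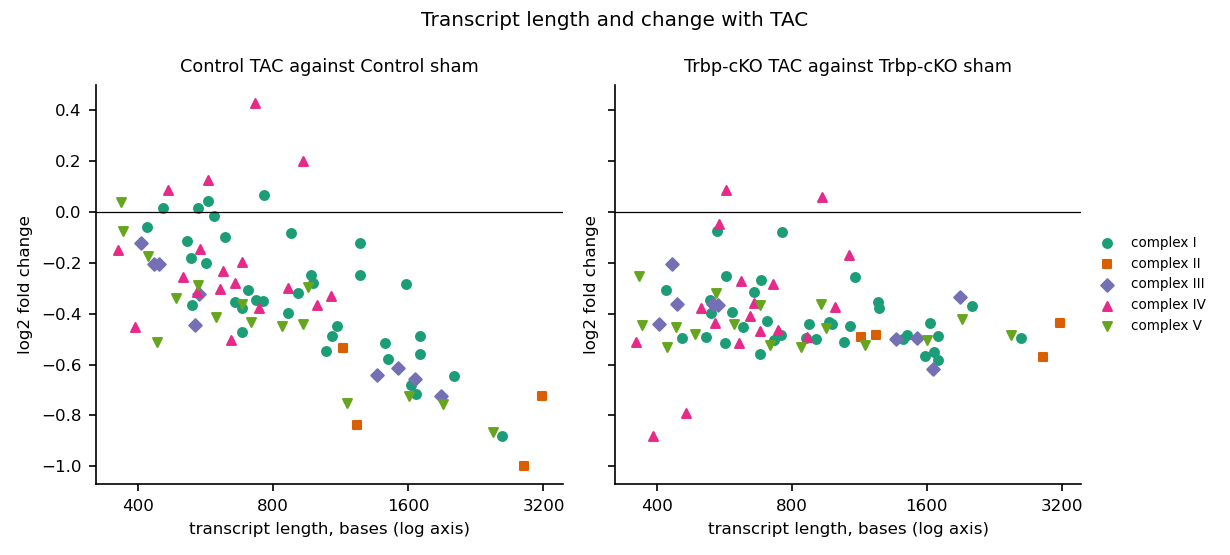
Log2 fold change with TAC of each member against the length of its transcript (log axis, bases) in control hearts (left) and Trbp-cKO hearts (right), coloured by complex. The slope with length on the left (Spearman's rho -0.68) is weaker on the right (-0.19). On the right, levels fell steeply with length in a sham heart and in a TAC heart, on opposite sides of the difference.

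The same 2 hearts differed in what else they held. Counts of the mitochondrial chromosome made up 38.2% and 38.8% of their totals, against 25.0% to 26.3% in control sham hearts and 25.2% and 21.7% in control TAC replicates 3 and 4. The 13 subunits it codes for summed to 374070 and 376929 CPM in those hearts and to 239148 to 254986 CPM in control sham hearts. None of the 13 was called (median 0.35, 13 positive), and without the 3 hearts that stand apart the median was -0.09. Cardiomyocyte markers summed to 33097 and 26498 CPM in replicates 1 and 2, beside 67796 and 68454 CPM in replicates 3 and 4. Fibroblast markers summed to 2001 and 2019 CPM, beside 1201 and 1409 CPM, with 5 of 10 called higher for the group. Endothelial markers summed to 1973 and 2245 CPM in replicates 1 and 2, beside 1109 and 1097 CPM, with 1 of 10 (Egfl7) called higher. Of 10 smooth muscle and pericyte markers, Cspg4 was called higher (0.90) and Acta2 lower (-1.27). Their sums were 1078 to 1292 CPM after TAC and 1206 to 1410 CPM in control sham hearts. Adipocyte markers, of which 1 was tested and 0 called, summed to 870 and 899 CPM in replicates 1 and 2, beside 424 and 474 CPM. Of 6 atrial markers Nppa and Dkk3 were called higher and Stard10 lower, at sums of 2224 to 4227 CPM beside 969 to 1599 CPM in control sham hearts. The clock score separated the groups as well, at -0.22 to 0.01 after TAC and 1.11 to 2.41 after sham surgery. With it in the fit the median member differed by -0.50, and 0 were called. The part of these in the members' values was not tested.

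In Trbp-cKO hearts some members passed the test for TAC. With Trbp deleted, 19 of 86 members were called lower (22.1%) and 0 higher after TAC than after sham surgery, beside 3.92% and 6.02% of all genes. At an unadjusted p under 0.05 there were 54 lower and 0 higher, beside 10.3% and 12.7% of all genes, and 84 had a difference below 0, beside 50.2% (median -0.44, beside -0.00 over all genes). Trbp-cKO TAC hearts lay wholly below in 42 members, beside 8.14% of all genes, and above in 0, beside 9.05%. The calls were 9 of 36 in complex I, 0 of 4 in complex II, 1 of 9 in complex III, 5 of 18 in complex IV and 4 of 17 in complex V. With a log2 difference of at least 0.8 as well, 1 was called lower (Cox7a1), beside 2.34%. The count moved with the choice of hearts. It was 3 of 86 without replicate 1 or 3 of either group, where all genes gave 566 of 20387 and 597 of 20195 lower calls (sham hearts left out) and 473 of 20365 and 538 of 20220 (TAC hearts left out), so that in these 4 fits the members' share of lower calls stood close to that of all genes. The size of the difference moved less. In the same order the median member differed by -0.38, -0.43, -0.45 and -0.46. In each of these fits 83 or 84 members were below 0, and 40 to 47 were lower at an unadjusted p under 0.05. The count of calls was 6 without TAC replicate 4 (618 of all 20300 genes), 12 without sham replicate 2 (504 of 20223), 19 without sham replicate 4 (510 of 20373) and 33 without TAC replicate 2 (709 of 20229). Without the 3 TAC hearts that stand apart, 56 of 87 were called lower, with a median of -0.34, and of all 20635 genes in that fit 1554. With the clock score in the fit 0 members were called, the median went from -0.44 to -0.25 and the members lower at an unadjusted p under 0.05 from 54 to 3, and the lower calls over all 19955 genes went from 782 to 68.

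Among the members that passed, Cox7a1 differed most. It measured 401, 332, 363 and 307 CPM in Trbp-cKO sham and 191, 249, 196 and 126 CPM in Trbp-cKO TAC hearts, and it fell by 0.88 on the log2 scale (SE 0.17, adjusted p = 0.00378, edgeR). Of its fellow heart forms, Cox8b fell by 0.51 (adjusted p = 0.0288) and Cox6a2 by 0.47. Ndufa4 fell by 0.51 from 598, 498, 566 and 464 CPM to 375, 469, 366 and 278 CPM (SE 0.16, adjusted p = 0.0489), just past the threshold and with overlapping hearts. Among the complex I members that passed, Ndufv3 differed most, an accessory subunit beside the NADH site that measured 208, 173, 198 and 164 CPM in sham and 117, 147, 127 and 111 CPM in TAC hearts (-0.57 ± 0.12, adjusted p = 0.00577). Its groups did not overlap. Ndufs6, an accessory subunit of the matrix arm needed for assembly, went from 226, 190.4, 221 and 175.2 CPM to 139, 169, 136 and 125 CPM, again without overlap (-0.52 ± 0.11, adjusted p = 0.00893). Ndufb8 of the membrane arm went from 439.9, 362, 391.8 and 336 CPM to 264, 319, 259.6 and 195 CPM (-0.56 ± 0.17, adjusted p = 0.0476). In the ATP synthase, Atp5e, the epsilon subunit of the central stalk, went from 329, 255, 300.1 and 234 CPM to 188, 223, 182 and 183 CPM (-0.53 ± 0.13, adjusted p = 0.0195). The other members called lower were Ndufa3, Ndufa5, Ndufb2, Ndufb4, Ndufb7 and Ndufb11, Uqcrq, Cox5b, and Atp5h, Atp5j2 and Atp5k, with falls of 0.43 to 0.50 on the log2 scale.

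The catalytic subunits did not pass in the 8 Trbp-cKO hearts either, and 1 heart on each side stood low. Sdha measured 901, 977, 561 and 934 CPM in Trbp-cKO sham and 676, 689, 632 and 272 CPM in Trbp-cKO TAC hearts (-0.57 ± 0.44, adjusted p = 0.502). Atp5a1 (-0.48 ± 0.40) and Ndufs1, the iron-sulphur subunit of complex I (-0.49 ± 0.42), were low in the same hearts, Trbp-cKO sham replicate 3 and Trbp-cKO TAC replicate 4. Endothelial markers summed to 1593 CPM in that sham heart, beside 926 to 1113 CPM in the other sham hearts of this genotype. In that TAC heart they summed to 1651 CPM, beside 919 to 1079 CPM in the other Trbp-cKO TAC hearts. Without the 3 TAC hearts that stand apart, Cyc1 (-0.33, adjusted p = 0.0151), Uqcrfs1 (-0.34, adjusted p = 0.0243), Sdhb, Uqcrc1 and Ndufv1 were among those called lower, and Sdha, Atp5a1, Atp5b and Ndufs1 were not. The difference followed length less here (rho -0.19 over 85 members): the 4 windows of length gave medians of -0.39, -0.44, -0.48 and -0.49, beside -0.06, -0.05, -0.04 and 0.02 for other coding genes. Fibroblast markers summed to 1886 to 2998 CPM in Trbp-cKO TAC hearts (4 of 10 higher than in Trbp-cKO sham). Cardiomyocyte markers summed to 38095 to 67127 CPM (Tnni3 lower, 5 of 12 above 0). Atrial markers summed to 11261 to 16472 CPM, beside 1496 to 1898 CPM in Trbp-cKO sham hearts. Of 6 atrial markers, 4 were called higher, among them Nppa and Myl4, and Stard10 was called lower (-1.09, adjusted p = 0.000576, edgeR). Of 10 smooth muscle and pericyte markers, Tagln, Cnn1 and Cspg4 were called higher and Kcnj8 lower, at sums of 1488 to 1657 CPM after sham surgery and 1173 to 1630 CPM after TAC. The part of these in the falls was not tested.

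**Figure D5:**
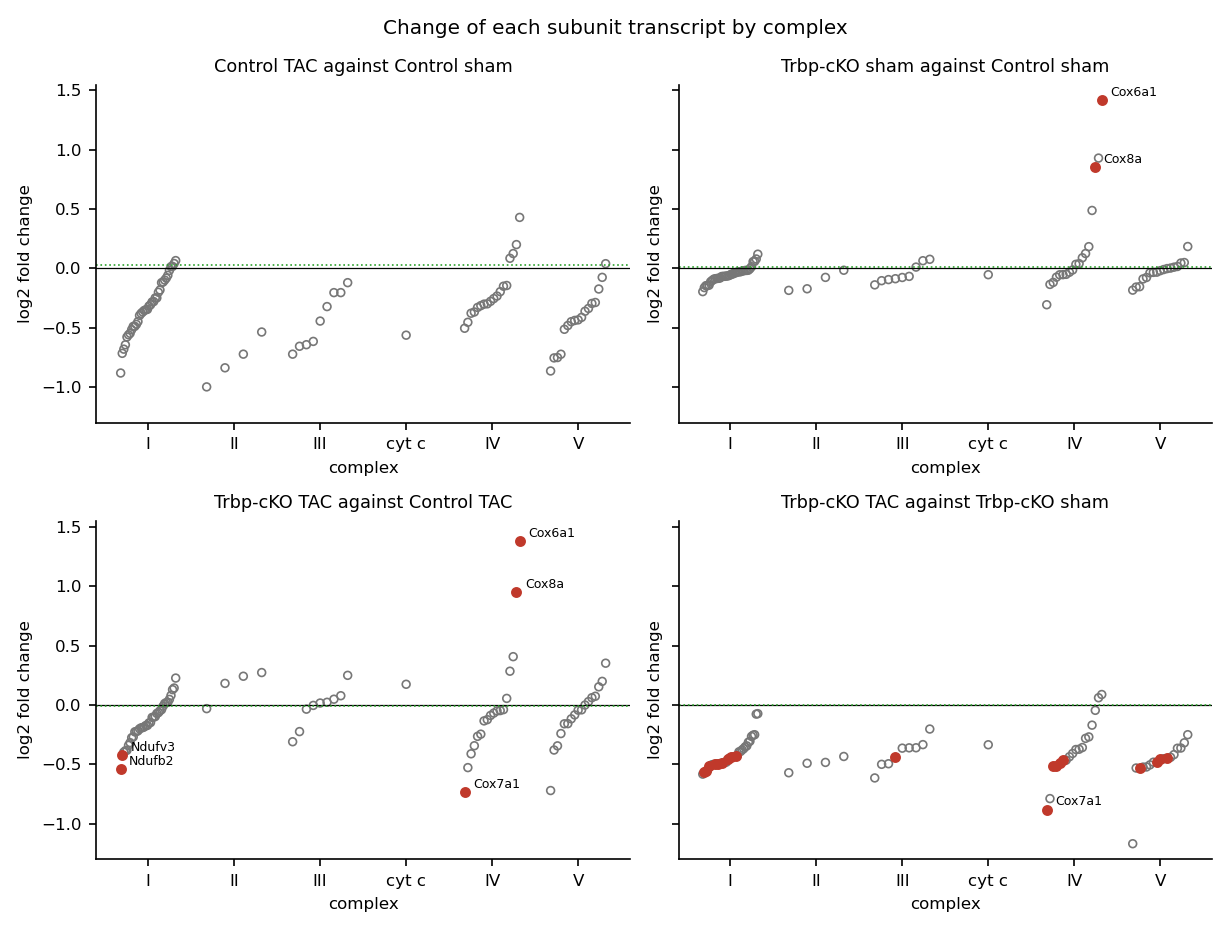
Log2 fold change of each member tested, ordered within its complex, in 4 comparisons; filled red points passed the test (adjusted p of at most 0.05), open points did not, and the dotted line is the median of all genes. Red points are the 2 common forms Cox6a1 and Cox8a in both comparisons of Trbp-cKO with control hearts, 3 lower members after TAC and 19 lower members for TAC with Trbp deleted; the open point at -1.17 is a second, low row of Atp5o that shares most of its sequence with other genes.

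Between the TAC groups, Trbp-cKO hearts differed from control hearts in 5 members. Called were 2 higher (2.33%), Cox6a1 and Cox8a, and 3 lower (3.49%), Cox7a1, Ndufb2 and Ndufv3, beside 3.88% and 1.65% of all genes. At an unadjusted p under 0.05 there were 3 higher and 15 lower, beside 11.9% and 9.49%, and the median member differed by -0.07. That median turned on single hearts: it was -0.20 without control TAC replicate 2 and 0.00 without Trbp-cKO TAC replicate 4. Without the 3 TAC hearts that stand apart, a choice made after seeing the data, it was -0.23. In that fit 80 of 87 members were below 0 and 31 were lower at an unadjusted p under 0.05, and the shares of all genes are not given here. Mitochondrial ribosome subunits had a median of -0.14 in the same fit and cytosolic ones -0.04. With a log2 difference of at least 0.8 as well, 0 were called lower, beside 0.912%. Ndufb2, an accessory subunit of the complex I membrane arm (chr6:39592574-39603382, plus strand), measured 148, 143, 118 and 111 CPM in control TAC and 88.2, 100.4, 85.5 and 83.0 CPM in Trbp-cKO TAC hearts. Its groups were separate (-0.54 ± 0.12, adjusted p = 0.0208), and without the 3 TAC hearts that stand apart the difference was -0.33 (adjusted p = 0.140). Ndufv3 (chr17:31520115-31531331, plus strand) measured 165, 155, 180 and 173 CPM in control TAC and 117, 147, 127 and 111 CPM in Trbp-cKO TAC hearts (-0.43 ± 0.12, adjusted p = 0.0466). Trbp-cKO TAC hearts lay wholly above in 3 members and wholly below in 10, beside 6.12% and 3.93% of all genes. The lower calls were 0 without control TAC replicate 1 (123 of all 20309 genes) and without Trbp-cKO TAC replicate 1 or 3 (106 of 20365 and 142 of 20220). They were 2 without control TAC replicate 2, 3 or 4 (215 of 20284, 396 of 20244 and 589 of 20370). Without Trbp-cKO TAC replicate 2 they were 6 (180 of 20229), and without its replicate 4 they were 3 (430 of 20300). Sdha (0.24 ± 0.44) and Atp5a1 (0.20 ± 0.39) were far within their error, and without those 3 hearts they differed by -0.24 and -0.27. The difference rose with transcript length here (Spearman's rho 0.47 over 85 members). From short to long, the windows of length gave medians of -0.17, -0.15, -0.004 and 0.16, beside -0.05, 0.04, 0.16 and 0.20 for other coding genes. Of the lower members, Cox7a1 has 393 bases, Ndufb2 455 and Ndufv3 1582. Cox6a1 and Cox8a, which were higher, have 571 and 550. The part of length in these values was not tested.

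Lists of cell type and tissue markers differed between the TAC groups too. Atrial markers summed to 2224 to 4227 CPM in control TAC and 11261 to 16472 CPM in Trbp-cKO TAC hearts, with 3 of 6 called higher (Nppa, Myl4 and Dkk3). Nppa codes for ANP, which the authors used as a marker of heart failure. Atrial tissue and a response of ventricular cardiomyocytes cannot be told apart in this list. Fibroblast markers summed to 1201 to 2019 CPM and 1886 to 2998 CPM, with 3 of 10 called higher (Col1a1, Col1a2 and Col3a1). Of 10 smooth muscle and pericyte markers 3 were called higher (Acta2 by 2.35 on the log2 scale), at sums of 1078 to 1292 CPM and 1173 to 1630 CPM. Endothelial markers gave 0 of 10 calls and a median of -0.45. Cardiomyocyte markers summed to 26498 to 68454 CPM and 38095 to 67127 CPM, with Myl3 called lower (-1.95). Of the 12 in that list 7 were above 0 and 5 below, with a median of 0.25. The part of these in the 5 members' values was not tested.

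Whether TAC acted otherwise with Trbp deleted was tested by the interaction of deletion and TAC. No member passed by edgeR or by DESeq2, beside 0.591% of all genes higher and 0.456% lower, and 0 were higher and 4 lower at an unadjusted p under 0.05, beside 7.18% and 8.2%. Those 4 were Ndufb2 (-0.51), Cox4i2 (-0.71), Cox6b2 (-0.87) and Ndufa6 (-0.38). For Ndufb2 the adjusted p of the interaction was 0.176. For Cox7a1 the interaction was -0.43 (interval -0.90 to 0.05, adjusted p = 0.419). For Cox6a1 it was -0.04 (-0.39 to 0.32) and for Cox8a 0.10 (-0.17 to 0.36), so the deletion difference in these genes was of like size in sham and TAC hearts within those bounds. Sdha gave 0.43 with an interval of -0.79 to 1.65. The interaction rose with transcript length (Spearman's rho 0.64 over 85 members). Its median was -0.16 in members under 600 bases and 0.26 in those of 1600 to 4000 bases. Other coding genes gave -0.18 and 0.28 in the same windows.

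Summed over members, every complex was lower on average after TAC in both genotypes. In control hearts complex I summed to 9793 ± 224 CPM after sham surgery and 7388 ± 1489 after TAC, and in Trbp-cKO hearts to 9313 ± 864 and 6860 ± 1152 (SD, n = 4). Complex II summed to 2332 ± 86, 1350 ± 729, 2144 ± 315 and 1506 ± 419 CPM in that order, and complex III to 4689 ± 95, 3280 ± 1024, 4473 ± 396 and 3273 ± 650 CPM. Complex IV summed to 6878 ± 346, 5569 ± 621, 6942 ± 844 and 5200 ± 677 CPM, and complex V to 15208 ± 270, 9940 ± 3798, 14629 ± 1446 and 10672 ± 2266 CPM. The SD of the control TAC group was the largest of the 4 for complexes I, II, III and V, where replicates 1 and 2 pull the sum down.

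Other genes of mitochondrial energy supply were read by list. The 13 mitochondrial chromosome subunits summed to 159283 to 214761 CPM in Trbp-cKO TAC hearts, and 6 of them (mt-Nd3, mt-Nd4, mt-Co2, mt-Co3, mt-Atp6 and mt-Atp8) were called lower than in control TAC hearts, by 0.78 to 0.83 on the log2 scale. Without the 3 hearts that stand apart 3 were called (mt-Cytb, mt-Co3 and mt-Atp6), with a median over the 13 of -0.42 in place of -0.76. Against Trbp-cKO sham hearts 0 of 13 were called, and 8 without those hearts. The 14 genes of the tricarboxylic acid cycle gave 0 calls in the 4 comparisons, with medians of -0.83 for TAC in control hearts and -0.47 for TAC in Trbp-cKO hearts. Among 8 energy transfer carriers, Slc25a5, the ADP/ATP carrier made in most tissues, was higher in Trbp-cKO TAC than in control TAC hearts (0.88, adjusted p = 0.0318) and differed by 0.74 in the sham comparison (adjusted p = 0.115). Slc25a4, the heart and muscle form of that carrier, differed by 0.01 and 0.03.

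Among 13 transcription factors and coactivators, Ppargc1b (PGC-1beta) was called lower in Trbp-cKO sham than in control sham hearts (-0.74, adjusted p = 0.0390). Ppargc1a (PGC-1alpha) differed by -1.32 there (adjusted p = 0.149) and by -1.48 for TAC in control hearts (adjusted p = 0.0515). Of the 22 complex IV assembly factors tested, Cox19 was called higher in Trbp-cKO TAC than in Trbp-cKO sham hearts (0.70, adjusted p = 0.0044). Of the 4 ATP synthase assembly factors, Fmc1 was called lower there (-0.58, adjusted p = 0.0129). The 15 complex I assembly factors gave 0 calls, with medians of -0.45 for TAC in control hearts and -0.26 for TAC in Trbp-cKO hearts. Of 78 mitochondrial ribosome subunits, 1 was higher and 5 were lower after TAC in Trbp-cKO hearts (median -0.26), and of 79 cytosolic ribosome subunits 1 and 1 (median -0.03), beside 6.02% higher and 3.92% lower over all genes.

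Total counts ran from 45166994 to 68274222 per heart. The members took 3.60% to 3.91% of them in control sham, 1.85% to 3.52% in control TAC, 3.71% to 4.20% in Trbp-cKO sham and 2.27% to 3.30% in Trbp-cKO TAC hearts. Sequence shared with other genes on either strand, both pseudogenes and overlapping neighbours, is a limit for single members. In stretches of 75 bases, 20 of the 87 shared more than 10% of their sequence with other genes. Another 48 shared none, among them Cox6a2, Cox7a1, Cox7a2, Cox8a, Cox8b and Ndufv3. Cox6a1 shared 6.44%.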

How the data were processed

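Poly(A) RNA of 16 ventricles (4 groups of 4) was read as paired ends of 150 bases. Cutadapt 2.3 (trimming), HISAT2 2.1.0 (alignment to GRCm38) and StringTie 1.3.4 were the tools of the authors, and the deposited counts per gene were derived from StringTie coverage with its prepDE script. These counts are whole numbers and were used as deposited, with 0 columns left unused. Counting by strand and the annotation release were not given in the sources used here. Gene types and coordinates came from a GENCODE annotation of GRCm38.

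CPM values were scaled by TMM. Genes passing filterByExpr (19955) were fitted over all 16 hearts with edgeR 4.0.16 (R 4.3.3; robust quasi-likelihood test, Benjamini-Hochberg adjustment over all genes tested, call at an adjusted p of at most 0.05), and the test was tried on simulated data for control TAC against control sham. Single CPM values of 4 hearts against 4 were compared by the exact permutation test (scipy 1.17.1, two-sided). Intervals of differences are 95% intervals. The labels do not say more than that each sample is a separate heart, and p-values measure the spread between these samples. Alternatives were library-size scaling, TMM without the mitochondrial chromosome, other filters, counts divided by 2 (for the read length assumed by that script), a fold threshold, fits on 2 groups, the edgeR exact test, DESeq2 1.42.0, a replicate block, a clock score and leaving out hearts. Members named are the 6 largest called rises and falls of each comparison, plus fixed core subunits and isoform pairs. The members and lists were chosen with earlier results of these data known.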

Additional observations from a re-analysis of the deposited data

Results flagged for a closer look

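In 140 groups of 4 hearts, 8 held a heart far from its other 3 by Dixon's test, which chance does in about 1 group in 20. Of the 8, 5 concern Trbp-cKO TAC replicate 4: Sdha at 272 CPM, Atp5a1 at 1307 CPM, Ndufs1 at 177 CPM and the complex II sum at 881 CPM were low, and Cox4i2 was high at 7.85 CPM. Ndufs1 was low in Trbp-cKO sham replicate 3 at 335 CPM, Cox7a1 was low in control TAC replicate 2 at 263 CPM, and Atp5e was high in Trbp-cKO TAC replicate 2 at 223 CPM.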

How the results depend on the processing

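Cox6a1 and Cox8a kept their calls in Trbp-cKO TAC against control TAC under all 19 alternatives (log2 1.34 to 1.52 and 0.93 to 1.09), and without TAC under 17 of 18, not with the clock score. Cox7a1 kept its call under 13 of 19 against control TAC and 18 of 19 against Trbp-cKO sham, Ndufb2 under 13 and Ndufv3 under 6 of 19 against control TAC. Of 67 member differences, 9 changed sign under some alternative, none of them called. With library size alone, a shift common to all genes, Cox6a2 and Cox8b for deletion without TAC were 0.019 and 0.043, and the Cox6a1 interaction 0.010. With the clock score Cox8a for TAC in Trbp-cKO hearts was 0.0135, and the interactions of Cox6a1 and Cox7a1 were 0.11 and 0.085. Without the 3 TAC hearts that stand apart, Sdha and Atp5a1 were -0.24 and -0.27 for deletion with TAC, and the interactions of Sdha and Cox6a1 -0.048 and 0.079. With 1 heart left out, Cox8b for deletion without TAC ran from -0.13 to 0.018, Sdha and Atp5a1 for deletion with TAC from -0.052 to 0.58 and -0.082 to 0.51, Cox6a1 and Cox8a for TAC in Trbp-cKO hearts from -0.012 to 0.20 and -0.10 to 0.019, and the Cox6a1 interaction from -0.13 to 0.084. Of the 1312 values, 1079 stayed on their side of the threshold, 180 lost a call and 34 gained one. With library size in place of TMM the median over all genes went from 0.01 to 0.11 for deletion without TAC and from -0.01 to 0.13 for deletion with TAC, and the median member with it, from -0.04 to 0.05 and from -0.07 to 0.06, so that the median member stayed below that of all genes under both scalings.

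Members lower in control TAC against control sham numbered 14 by DESeq2 and 0 to 14 when 1 heart was left out. Members higher with deletion in sham hearts numbered 0 with the clock score (0 of all genes). They numbered 4 by DESeq2 (537 of all 19955 genes), by the exact test (977 of 19021) and in the fit on 2 groups (713 of 19021). Members lower in Trbp-cKO TAC against control TAC numbered 0 with the fold threshold (182 of all 19955 genes), in the fit on 2 groups and by the exact test. They numbered 1 with the replicate block, 5 with the filter of 1 CPM, 12 by DESeq2 and 0 to 6 when 1 heart was left out. For the replicate block, the filter of 1 CPM and DESeq2 the lower calls over all genes are not given here, so these counts are not read as a result about the members. Members lower with TAC in Trbp-cKO hearts numbered 0 with the clock score (68 of all 19955 genes) and 1 with the fold threshold (467 of 19955). They numbered 4 in the fit on 2 groups (741 of 19053), 5 with the replicate block (504 of 19955) and 11 with no filter (582 of 37067). They numbered 12 with library size (635 of 19955), 34 with the filter of 1 CPM (779 of 15071) and 39 by DESeq2 (1137 of 19955). Without the 3 TAC hearts that stand apart there were 56 (1554 of 20635), and 3 to 33 when 1 heart was left out. The cause was not tested. Replicate numbers did not pair the hearts (correlations of -0.43 to 0.21).

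Without division by length, Cox6a1 took 6.95%, 17.3% and 23.7% of its pair in control sham, Trbp-cKO sham and Trbp-cKO TAC hearts. In control sham, control TAC, Trbp-cKO sham and Trbp-cKO TAC hearts, Cox7a2 took 33.5%, 36.3%, 46.5% and 56.1%, Cox8a 21.8%, 21.9%, 34.3% and 42.2%, and Ndufa4l2 2.73%, 3.89%, 3.00% and 4.65%. With library size alone the control sham sums were 9402 CPM (complex I), 2238 (II), 4501 (III) and 14598 (V).

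Depth was high for all members but Cox6b2, Cox7b2 and the second row of Atp5o. The 4 hearts a group and the 2 divergent control TAC hearts limit small differences, and transcripts say nothing of protein or enzyme activity.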

Other observations

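Genes near the chain but outside its naming gave no call in the 4 comparisons where listed here. Atpif1, the inhibitor of the ATP synthase, averaged 97.3 CPM after sham surgery and 112 CPM after TAC in control hearts, and 115 and 127 CPM in Trbp-cKO hearts. Usmg5, a small membrane subunit of the ATP synthase, averaged 257, 201, 240 and 185 CPM in the same order, and Ndufb1-ps, annotated as a non-coding row, 86.4, 82.6, 83.5 and 67.3 CPM. Gm10053, a coding row like cytochrome c, averaged 78.1, 54.0, 76.0 and 58.9 CPM.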
